A study of Mus musculus with 3 samples.

Results

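The immediate early genes are 10 genes, Egr1, Atf3, Fos, Fosb, Jun, Junb, Jund, Ier2, Ier3 and Dusp1, taken by symbol from the 32285 genes of the count tables and described here across cell types. The cells were wild-type C57BL/6 mouse dendritic cells that had been differentiated in culture with FLT3L, the growth factor of dendritic cell development, and scraped from plates for 10x Genomics 3′ single-cell RNA sequencing. One library was grown in 50 µM glutamine, one in 2 mM glutamine with 1 µM DON, and one, the control, in 2 mM glutamine alone. DON is an antagonist that resembles glutamine and inactivates the enzymes that consume it. All 3 libraries shared the wild-type genotype and FLT3L, and each group had 1 library, so no difference below could be tested and every interval covers counting error only.

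Immediate early genes are transcribed within minutes of a stimulus, without new protein synthesis, mostly from promoters bound by serum response factor or by factors of the cAMP response element family. Fos and Fosb pair with Jun, Junb and Jund to form the transcription factor AP-1. Jund is the most constitutive of the Jun proteins, and Junb is linked to dendritic cell activation. Atf3 is a stress-induced repressor of the ATF/CREB family that limits inflammatory genes in myeloid cells. Egr1 is a zinc-finger activator induced through ERK, and Dusp1 is a phosphatase that switches off p38 and JNK. Ier2 and Ier3 are small early-response proteins, and Ier3 is also a target of NF-kB.

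RefSeq promoters (build GRCm38.p6) were used for 8 of the 10 members, and Egr1 and Ier2 were not included. The 250 bases before the start were searched for the cAMP response element TGACGTCA, its core TGACG, the AP-1 element TGANTCA, the ATF4 composite element TTNCATCA, the CArG box of serum response factor (all on both strands), and TATAAA on the given strand. The full element contains the core. The windows of 4 members are printed in lower case with matches in capitals. They were chosen because Atf3 and Junb had lower levels in treated cDC2 (type 2 conventional dendritic cells), whereas Fos and Dusp1 had overlapping intervals there. Junb stayed short of 1.5-fold in these cells, and Dusp1 had a low level. Jund, Jun and Ier3 were also lower in treated cDC2, and their windows, not printed, held none of the motifs searched.
Atf3 (chr1:191183334-191183583, minus strand): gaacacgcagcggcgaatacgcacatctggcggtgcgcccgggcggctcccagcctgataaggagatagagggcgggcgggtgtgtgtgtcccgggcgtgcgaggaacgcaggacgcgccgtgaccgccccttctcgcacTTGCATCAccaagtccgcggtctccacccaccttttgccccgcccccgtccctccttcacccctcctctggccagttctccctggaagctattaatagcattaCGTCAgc
Junb (chr8:84978749-84978998, minus strand): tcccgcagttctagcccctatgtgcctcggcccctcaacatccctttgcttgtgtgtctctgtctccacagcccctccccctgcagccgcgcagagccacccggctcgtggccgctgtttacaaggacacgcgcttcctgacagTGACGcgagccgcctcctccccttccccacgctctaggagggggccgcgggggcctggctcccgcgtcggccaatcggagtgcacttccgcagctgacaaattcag
Fos (chr12:85473640-85473889, plus strand): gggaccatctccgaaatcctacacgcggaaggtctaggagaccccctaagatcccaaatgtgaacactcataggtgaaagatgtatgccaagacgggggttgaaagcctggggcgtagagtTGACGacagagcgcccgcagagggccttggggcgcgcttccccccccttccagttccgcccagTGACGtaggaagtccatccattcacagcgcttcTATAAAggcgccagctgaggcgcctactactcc
Dusp1 (chr17:26508473-26508722, minus strand): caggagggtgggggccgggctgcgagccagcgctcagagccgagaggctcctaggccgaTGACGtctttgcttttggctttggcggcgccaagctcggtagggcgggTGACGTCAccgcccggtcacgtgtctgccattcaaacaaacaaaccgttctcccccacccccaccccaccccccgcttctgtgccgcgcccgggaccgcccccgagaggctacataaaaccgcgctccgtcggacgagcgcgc
The core TGACG was in 5 of the 8 windows, those of Atf3, Dusp1, Fos, Fosb and Junb, against 17.8% of 32851 promoters. The full element was in Dusp1 alone among the 8, at 143 to 136 bases before the start, and in 1.55% of all promoters. The composite element was in Atf3 alone among the 8, at 110 to 103 bases before the start, and in 3.45% of all promoters. The TATAAA of Fos lay 33 to 28 bases before the start, and 7.59% of promoters held one. The AP-1 element and the CArG box were in none of the 8 windows, against 6.75% and 1.47% of all promoters. Bases farther upstream than 250 and the promoters of Egr1 and Ier2 were not searched. The search therefore does not show that the members lack either element. The windows follow RefSeq starts, which can differ from other annotations. The Jund window ended at base 70697738 of chromosome 8, ahead of the gene start at 70698949 in GENCODE vM21. The Atf3 and Dusp1 windows lay inside the gene bounds of GENCODE vM21. A match is a run of letters, not a measured site, and the 4 other windows with a promoter entry are not printed.

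The libraries held 92002827 UMIs in 9817 barcodes at 50 µM glutamine, 87611658 in 8962 with DON and 89340379 in 10497 in control, and 9169, 8367 and 9473 cells in that order passed the filters and the doublet caller. Only 73 of 29203 barcode sequences occurred in more than 1 library. Cells were assigned to a class when UMIs of its marker list reached a minimum, and no member is a marker. The classes were conventional dendritic cells of type 1 (cDC1) and type 2 (cDC2), plasmacytoid dendritic cells (pDC), mature dendritic cells, progenitors, neutrophils and B lineage cells, each with at least 116 cells per library, and monocytes or macrophages, with 83 at 50 µM glutamine. The leading genes of each class fit its name, such as Naaa, Ifi205 and Xcr1 in control cDC1, Cd209a and Clec4b1 in control cDC2, and Ccl22, Fscn1 and Ccr7 in mature dendritic cells. The cDC1 gate held 232 cells at 50 µM glutamine, 581 with DON and 1297 in control, and the cDC2 gate held 1475, 1435 and 1407. Cells that passed several gates, left out of the classes below, were 17.1% at 50 µM glutamine, 11.3% with DON and 6.31% in control.

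The members peaked in different cell types: Junb, Ier3 and Dusp1 in mature dendritic cells, Jun, Fos and Ier2 in neutrophils, and Egr1 and Jund in B lineage cells, in each library among the 7 classes of at least 100 cells in every library. The intervals of Egr1 in control, Fos at 50 µM glutamine, Jun in control and Ier2 in both treated libraries overlapped those of the next class. Levels are UMIs scaled to the class sum (CPM), and a 95% Poisson interval follows in brackets where it matters. The 83 to 159 monocytes or macrophages had the highest sum over the 10 members, at 1138 CPM at 50 µM glutamine, 1001 CPM with DON and 1034 CPM in control. Orders below are among the 7 larger classes. There mature dendritic cells were highest in each library, at 987 CPM at 50 µM glutamine, 881 CPM with DON and 977 CPM in control. Their interval overlapped that of B lineage cells at 50 µM glutamine (915 CPM) and with DON (756 CPM), and was apart from it in control. Progenitors and pDC were lowest, with progenitors at 204, 183 and 179 CPM and pDC at 216, 177 and 205 CPM in the same order. The highest of the 7 classes in control was 5.47 times the lowest. B lineage cells stood second in control at 734 CPM (651 to 825), and cDC1 at 628 CPM, cDC2 at 605 CPM and neutrophils at 602 CPM did not differ beyond their intervals. Of the 9 members that reached 5 CPM, 9 spanned at least 4-fold between classes in control (5 CPM added), as did 38.9% of all genes; in the DON library 8 of 9 did, against 36.6%, and at 50 µM glutamine 9 of 9, against 34.8%.

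**Figure D1:**
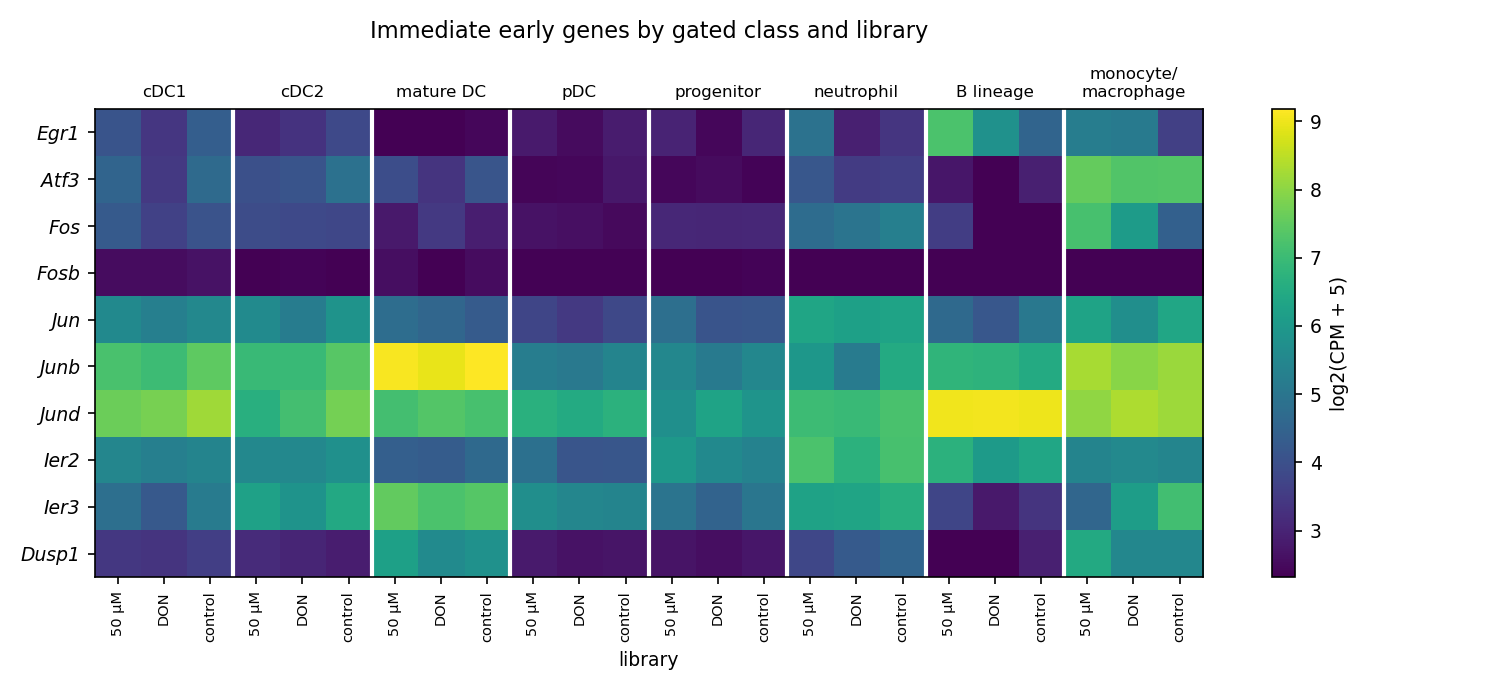
Levels of the 10 members as log2(CPM + 5), for 8 gated classes (columns, in groups of 3) in the 50 µM glutamine, DON and control libraries. Junb is brightest in mature dendritic cells (575 CPM in control), Jund in B lineage cells (513 CPM in control) and Atf3 in monocytes or macrophages (158 CPM in control), and Fosb is dark throughout.

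Among the AP-1 subunits, Junb was highest in mature dendritic cells, the activated, migratory state that carries Ccr7. It reached 550 CPM there at 50 µM glutamine, 490 CPM with DON and 575 CPM in control. Monocytes or macrophages had 307, 242 and 277 CPM of Junb in the same order. In control it had 173 CPM in cDC1, 165 CPM in cDC2 and 37.6 CPM in pDC. Jund was highest in B lineage cells, at 523, 525 and 513 CPM, and in control it decreased from there to cDC1 at 289 CPM, cDC2 at 209 CPM and progenitors at 53.1 CPM. Its values in B lineage cells were alike across the libraries. Jun was highest of the 7 classes in neutrophils, at 77.5 CPM at 50 µM glutamine, 68.9 CPM with DON and 73.5 CPM in control, and lowest in pDC, at 8.55, 5.94 and 9.02 CPM. Its order in control did not separate neutrophils from cDC2, at 52.8 CPM.

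Fos was a low gene in these cultures outside the monocyte or macrophage gate. In neutrophils, the highest of the 7 larger classes, it had 21.9 CPM at 50 µM glutamine, 26.0 CPM with DON and 34.1 CPM in control, with overlapping intervals. In the 83, 155 and 159 monocytes or macrophages it had 141, 62.7 and 16.4 CPM, from 52, 36 and 9 UMIs. These came from 23 cells at 50 µM glutamine, 17 with DON and 8 in control, and the intervals of 105 to 185, 43.9 to 86.7 and 7.49 to 31.1 CPM did not overlap. The cells in this gate also differed in their markers: the 12 monocyte or macrophage markers summed to 3343 CPM at 50 µM glutamine, 6376 CPM with DON and 6142 CPM in control, the 7 erythroid or megakaryocyte markers to 223, 602 and 590 CPM, and the 9 B lineage markers to 57.0, 155 and 155 CPM. The part of these markers in the Fos values was not tested. Fosb had 12 UMIs at 50 µM glutamine, 16 with DON and 29 in control over all cells, and no class reached 5 CPM, so its direction was not detectable at this depth.

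Atf3 was also highest in monocytes or macrophages, at 185 CPM at 50 µM glutamine, 153 CPM with DON and 158 CPM in control. In control it followed in cDC2 at 24.3 CPM and cDC1 at 20.7 CPM, which overlapped in their intervals, and in mature dendritic cells at 12.7 CPM. In pDC and progenitors it stayed under 2 CPM in each library, with at most 26 UMIs. In control Egr1 was highest in B lineage cells at 18.2 CPM and cDC1 at 15.9 CPM, whose intervals overlapped, ahead of cDC2 at 9.35 CPM. It was near absent from mature dendritic cells, with 0 UMIs at 50 µM glutamine, 0 with DON and 1 in control. A count of 0 there allows up to 3 counts.

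Ier2 was highest in neutrophils, at 146, 101 and 142 CPM in the 50 µM glutamine, DON and control libraries, and in control it was lowest in pDC, at 12.7 CPM. Ier3, linked to cell survival in NF-kB responses, was highest in mature dendritic cells, at 181, 146 and 159 CPM. In control it was lowest in B lineage cells, with 2 UMIs. Dusp1 was highest of the 7 classes there too, at 69.6, 43.8 and 50.6 CPM in mature dendritic cells, against 1.49 CPM in control pDC. Over the 21 class sums (7 classes in 3 libraries), log2 levels of Ier3 and Dusp1 had a Pearson correlation of 0.765, Junb and Dusp1 of 0.718, Fos and Jun of 0.865, and Egr1 and Ier3 of -0.619. The points of a library share its depth, and each of the 7 classes recurs in 3 libraries, so the 21 points are not independent. These values are a description of chosen pairs.

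The genes whose class pattern was most like the summed members were Mcl1, an anti-apoptotic BCL2 relative (Pearson r 0.934 over 21 class sums and 0.957 over the 7 control sums), then Marcks (0.893), Snx8 (0.892), Tnfrsf18 (0.850) and Snx20 (0.848), out of 8408 genes. For single members the nearest genes were Egr3 for Egr1 (0.915), Lyz2 for Fos (0.954), Rab8b for Dusp1 (0.969), Dbndd2 for Junb (0.945), Prex1 for Ier3 (0.922), Arrb1 for Jun (0.932), Daglb for Ier2 (0.935), Rab11fip4 for Jund (0.892) and Lfng for Atf3 (0.873). In control alone, Daglb stayed nearest to Ier2 (0.979 over 7 sums), whereas Egr3 was not among the nearest 2 of Egr1.

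In cDC1 the DON library was lower than control in all 9 members measured, that is, of at least 5 CPM in 1 of the 2 sums. Atf3 had 6.05 CPM (4.36 to 8.17; 42 UMIs) with DON, against 20.7 CPM (18.4 to 23.2; 284 UMIs) in control, a log2 ratio of -1.22 with 5 CPM added to each. Egr1 had 5.62 CPM (3.99 to 7.68) with DON, against 15.9 CPM (13.8 to 18.1) in control, a log2 ratio of -0.98. Ier3 had 14.0 CPM (11.3 to 17.0) with DON, against 31.1 CPM (28.2 to 34.2) in control, a log2 ratio of -0.93. For these 3 genes the intervals did not overlap. They were the 3 of 9 members at least 1.5-fold lower in cDC1, and 1.08% of 8764 genes were; 0 of 9 were at least 1.5-fold higher, as were 0.787% of genes.

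The Jun family in cDC1 was lower by less. Junb had 126 CPM with DON and 173 CPM in control, a log2 ratio of -0.44, and Jund had 212 CPM with DON and 289 CPM in control, also -0.44. Fos had 7.49 CPM with DON (5.59 to 9.82) and 11.9 CPM in control (10.1 to 13.8). Jun, Ier2 and Dusp1 had log2 ratios of -0.22, -0.12 and -0.24, with overlapping CPM intervals. The intervals of the log2 ratios, without added CPM, were -0.48 to -0.03 for Jun, -0.36 to 0.09 for Ier2 and -1.04 to 0.12 for Dusp1. The median over the 9 members was -0.44, and that over all genes tested was 0.08.

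By the member median, the cDC1 of the 50 µM glutamine library were closer to control than those with DON. Atf3 had 17.9 CPM (12.8 to 24.4) at 50 µM glutamine and 20.7 CPM in control, and Egr1 had 12.1 CPM (7.98 to 17.6) and 15.9 CPM in control. Neither interval was clear of its control interval, and the Egr1 value rested on 27 UMIs in 6 cells, of which 1 cell held 44.4%. Without the 1% of cells richest in members, the Egr1 log2 ratio of -0.29 was -1.52. It passed 1.5-fold under 3 of 12 alternatives, so the closeness of Egr1 to control depended on a few cells. Jund differed most, at 194 CPM (176 to 213) at 50 µM glutamine against 289 CPM (280 to 298) in control, a log2 ratio of -0.56. Junb had 143 CPM (128 to 160) at 50 µM glutamine and 173 CPM (166 to 180) in control. None of the 9 members passed 1.5-fold, against 4.42% of 8952 genes higher and 1.18% lower, and the member median was -0.16, beside 0.09 for all genes.

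In cDC2 each treated library was lower than control in 7 of the 8 measured members. Both comparisons use the same control cells, so their values are set side by side. Jund had 95.2 CPM (89.8 to 101) at 50 µM glutamine, 136 CPM (130 to 142) with DON and 209 CPM (201 to 218) in control. The 3 intervals were apart, and the log2 ratios to control were -1.10 at 50 µM glutamine and -0.61 with DON. Atf3 had 11.1 CPM (9.33 to 13.1), 12.3 CPM (10.5 to 14.2) and 24.3 CPM (21.6 to 27.3), with log2 ratios of -0.86 at 50 µM glutamine and -0.76 with DON. The treated libraries overlapped each other and lay clear of control.

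Egr1 in cDC2 had 3.46 CPM at 50 µM glutamine (43 UMIs in 22 cells), 5.01 CPM with DON (72 UMIs in 23 cells) and 9.35 CPM in control (112 UMIs in 57 cells). The log2 ratios were -0.76 at 50 µM glutamine and -0.52 with DON. Ier3 had 71.0 CPM at 50 µM glutamine, 52.2 CPM with DON and 83.8 CPM in control, and Jun had 43.9, 31.5 and 52.8 CPM. For both genes DON was the lowest library, with log2 ratios of -0.63 for Ier3 and -0.66 for Jun. Junb had 120, 119 and 165 CPM, with log2 ratios of -0.44 at 50 µM glutamine and -0.45 with DON.

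Fos did not follow this pattern in cDC2, with 10.1 CPM at 50 µM glutamine, 9.26 CPM with DON and 8.85 CPM in control, all within their intervals. Ier2 had 41.3, 40.8 and 49.1 CPM. Dusp1 stayed under 5 CPM in cDC2 of each library. Of 8 measured members, 3 were at least 1.5-fold lower at 50 µM glutamine, against 1.59% of 9271 genes, and 0 were higher, against 4.67%. With DON 4 of 8 were lower, against 0.554% of 9025 genes, and 0 were higher, against 0.321%. The member medians were -0.34 at 50 µM glutamine and -0.56 with DON, beside 0.15 and 0.08 for all genes.

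**Figure D2:**
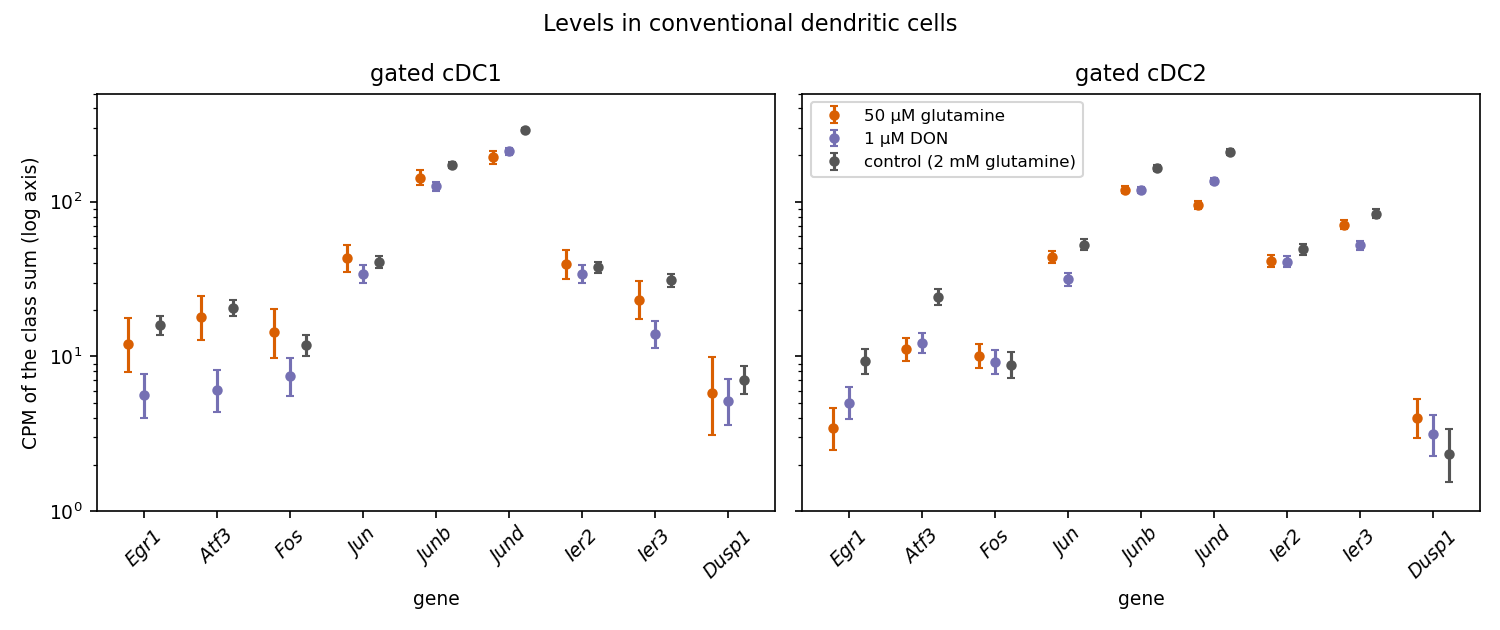
Levels in gated cDC1 (left panel) and cDC2 (right panel) on a log axis, with 95% Poisson intervals, for the 50 µM glutamine, DON and control libraries. Fosb is left out because it had at most 1.31 CPM in these classes. In cDC1 the DON values of Egr1, Atf3 and Ier3 sit below both other libraries; in cDC2 the 3 Jund values step apart at 95.2, 136 and 209 CPM.

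Other measures moved with these values. Cells with a Mki67 or Top2a UMI, markers of division, were 47.4% of cDC1 at 50 µM glutamine, 57.5% with DON and 42.5% in control, and 50.0%, 44.2% and 33.2% of cDC2. Among cDC2 cells, 48.8% at 50 µM glutamine, 47.2% with DON and 65.5% in control had a UMI of Cd209a or Clec4b1. Restricted to cDC2 with such a UMI, the DON log2 ratios were -0.43 for Jund, -0.44 for Jun, -0.53 for Atf3 and -0.53 for Ier3, each short of 1.5-fold. In cDC2 with no Mki67 or Top2a UMI, those of Jund, Jun and Ier3 with DON were -0.50, -0.46 and -0.41, and with thinning to 2000 UMIs they were -0.55, -0.40 and -0.56. Atf3 and Jund at 50 µM glutamine in cDC2, and Atf3, Egr1 and Ier3 with DON in cDC1, stayed past 1.5-fold under each alternative run. The Egr1 value at 50 µM glutamine in cDC2 missed 1.5-fold with stricter gates (-0.55), with cells of several gates kept (-0.52) and with 10 CPM added (-0.52).

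The median UMI count per cDC1 cell was 8829 at 50 µM glutamine, 11194 with DON and 9453 in control. The 12 monocyte or macrophage markers, the class with the highest Atf3, summed to 14.4, 17.6 and 17.2 CPM in cDC1 and to 111, 90.1 and 81.4 CPM in cDC2, with at most 4 of 12 at 0. The 11 mature dendritic cell markers summed to 158, 140 and 121 CPM in cDC1 and to 107, 78.6 and 99.1 CPM in cDC2. Larger shifts were seen in other lists. In gated cDC1 the 11 cDC2 markers summed to 315 CPM at 50 µM glutamine, 226 CPM with DON and 158 CPM in control, and 44.0%, 18.2% and 13.8% of the cells had a Cd209a or Clec4b1 UMI. In gated cDC2 the 12 progenitor markers summed to 109, 71.2 and 58.9 CPM, and the 11 neutrophil markers to 54.0, 33.9 and 20.6 CPM. The cDC1 markers themselves summed to 1876, 1482 and 2023 CPM in gated cDC1. The part of these measures in the differences was not tested.

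Cells that passed no gate, led by Klf4, Alox5 and Cd7 in each library, differed in Atf3 as well. Atf3 had 5.07 CPM (3.96 to 6.39) at 50 µM glutamine and 6.51 CPM (5.32 to 7.88) with DON, against 12.6 CPM (11.0 to 14.4) in control, log2 ratios of -0.81 and -0.61. It was the 1 of 8 measured members at least 1.5-fold lower in these cells, against 2.05% of 9410 genes at 50 µM glutamine and 0.264% of 9105 with DON. None of the 8 was higher, against 3.99% and 0.0439%.

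In pDC and progenitors only 5 members reached 5 CPM, and those past 1.5-fold were higher, not lower. Ier2 in pDC had 23.9 CPM (21.9 to 26.1) at 50 µM glutamine, against 12.7 CPM (10.9 to 14.6) in control, a log2 ratio of 0.71. With DON it had 12.5 CPM, within the control interval. Ier2 in progenitors had 58.2 CPM (52.5 to 64.5) at 50 µM glutamine, against 35.9 CPM (30.7 to 41.6) in control, a log2 ratio of 0.63 that was 0.57 with 10 CPM added. Jun in progenitors had 23.3 CPM (19.7 to 27.4) at 50 µM glutamine, against 12.9 CPM (9.85 to 16.5) in control, a log2 ratio of 0.66 that was 0.54 with thinning or with 10 CPM added. In the few progenitors with no Mki67 or Top2a UMI these ratios were 1.31 for Ier2 and 1.42 for Jun.

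Ier2 was higher in progenitors than in pDC in each library, and the 12 progenitor markers summed in gated pDC to 107 CPM at 50 µM glutamine, 47.7 CPM with DON and 37.8 CPM in control, with at most 1 of 12 at 0. The 12 pDC markers summed to 3399, 4308 and 4677 CPM in gated pDC. In gated progenitors the pDC markers summed to 364, 207 and 216 CPM and the progenitor markers to 2007, 1153 and 1610 CPM. The part of these markers in the Ier2 and Jun values was not tested.

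Of 5 members, 1 in pDC and 2 in progenitors were at least 1.5-fold higher at 50 µM glutamine, against 10.3% of 9411 and 2.93% of 9189 genes, and 0 were lower, against 4.79% and 1.57%. With DON 0 of 5 passed either way in pDC (1.74% of 9151 genes higher, 0.667% lower) or in progenitors (0.168% of 8949 genes higher, 0.592% lower). Cells with a Mki67 or Top2a UMI made up 53.8% of pDC at 50 µM glutamine, 32.4% with DON and 19.4% in control. In pDC with no such UMI the Ier2 log2 ratio at 50 µM glutamine was 0.43, and it was 0.44 with thinning. Jund in progenitors was higher with DON, at 74.2 CPM (66.8 to 82.1) against 53.1 CPM (46.8 to 60.0) in control, short of 1.5-fold at 0.45.

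Mature dendritic cells kept their high Junb in each library, with log2 ratios of -0.06 at 50 µM glutamine and -0.23 with DON. Atf3 had 5.29 CPM with DON (7 UMIs) against 12.7 CPM in control (31 UMIs), a log2 ratio of -0.78. The CPM intervals overlapped, and the interval of the log2 ratio, without added CPM, was -2.69 to -0.05. The log2 ratio was -0.57 with 10 CPM added and -1.42 with stricter gates. Atf3 was the 1 of 8 members past 1.5-fold lower with DON, against 3.62% of 8435 genes, and 0 were higher, against 4.65%. At 50 µM glutamine 0 of 7 passed 1.5-fold either way, against 8.09% of 8405 genes higher and 5.62% lower. The median over members was -0.05 at 50 µM glutamine and -0.16 with DON, beside 0.05 and 0.03 over all genes.

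**Figure D3:**
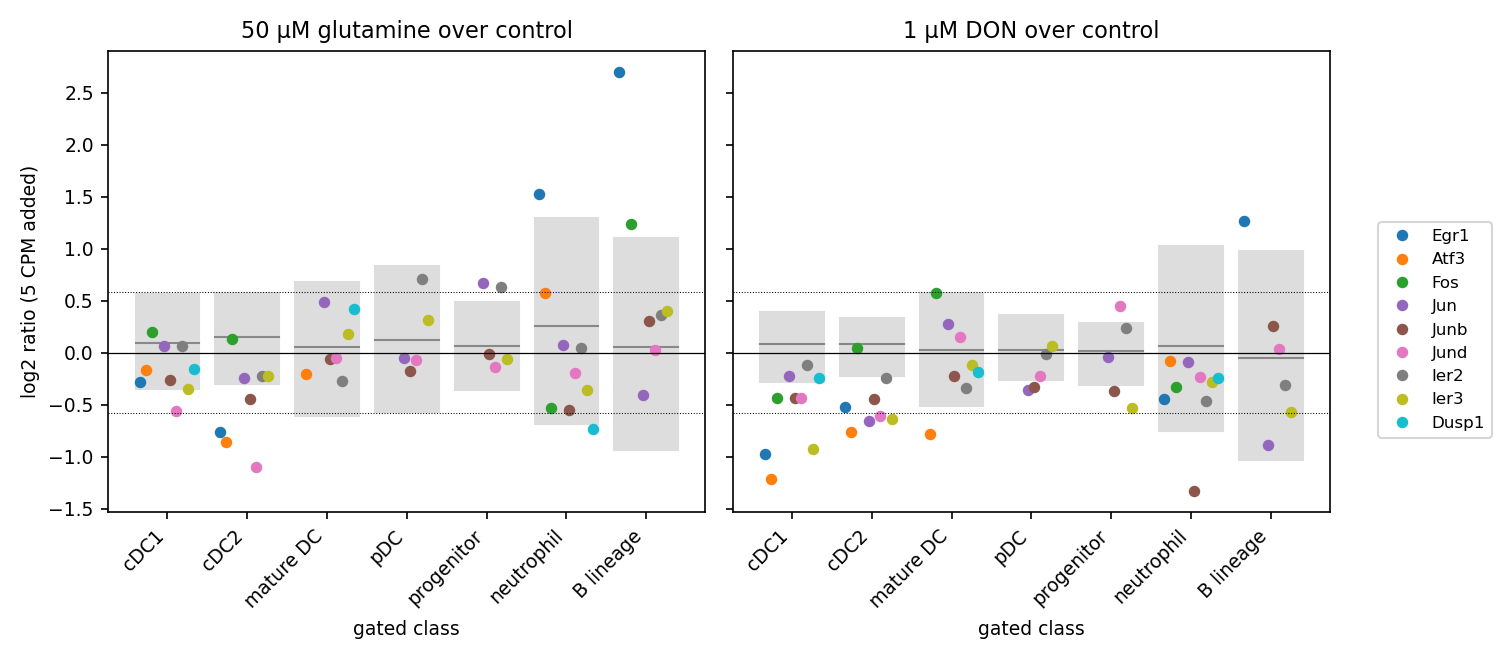
Log2 ratios of the measured members to control, with 5 CPM added, for 50 µM glutamine (left panel) and DON (right panel) in 7 classes; grey boxes span the 5th to 95th percentile of all genes tested, the grey line is their median and dotted lines mark 1.5-fold. Members in cDC1 and cDC2 lie mostly below 0, down to -1.22 for Atf3 with DON in cDC1, and Egr1 in B lineage cells is far above 0, at 2.70 for 50 µM glutamine and 1.26 for DON.

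Neutrophils and B lineage cells are small classes in which many genes passed 1.5-fold. Junb in neutrophils had 57.0 CPM (40.5 to 77.9) at 50 µM glutamine, 31.2 CPM with DON (upper bound 46.5) and 86.0 CPM (63.4 to 114) in control, and its log2 ratio with DON was -1.33. It was the 1 of 9 members past 1.5-fold lower with DON, against 9.24% of 8116 genes, and 0 were higher, against 15.4%. Dusp1 was lower at 50 µM glutamine, at 8.77 CPM from 6 UMIs against 17.9 CPM from 10 UMIs in control (log2 ratio -0.74), and it missed 1.5-fold under 4 of 12 alternatives. That was 1 of 9 members lower, against 6.78% of 8321 genes, and 1 of 9 higher, against 27.1%. The higher one was Egr1, whose 17 UMIs lay in 5 cells, 1 of which held 52.9%; without the 1% of cells richest in members its log2 ratio of 1.52 was 0.07.

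Egr1 in B lineage cells had 146 CPM (117 to 180) at 50 µM glutamine, from 86 UMIs in 23 of 200 cells, and 50.8 CPM (33.5 to 73.9) with DON, from 27 UMIs in 10 of 118 cells. Control B lineage cells had 18.2 CPM (7.33 to 37.6), from 7 UMIs in 6 of 116 cells. The log2 ratios were 2.70 at 50 µM glutamine and 1.26 with DON, and the richest cell held 13.95% of the UMIs at 50 µM glutamine and 14.8% with DON. As a mean over cells the log2 ratios were 1.90 at 50 µM glutamine and 0.60 with DON, and with thinning they were 5.05 and 4.21. Thinning kept 90 cells at 50 µM glutamine, 80 with DON and 56 in control, and control had only 7 UMIs before it. The thinned ratios therefore depend on the 5 CPM added and do not measure a larger difference. Egr2 and Egr3, its relatives, were also higher at 50 µM glutamine, at 30.5 and 126 CPM, against 2.60 and 44.3 CPM in control. The log2 ratios were 2.22 and 1.41, with intervals, without added CPM, of 0.89 to 8.93 and 0.73 to 2.36. Egr3 did not pass 1.5-fold with DON. Of 35 further immediate early genes 29 were measured, and 9 were higher and 1 lower at 50 µM glutamine, against 18.5% and 14.5% of all genes. With DON 4 were higher and 7 lower, against 12.6% and 15.5%. Fos in B lineage cells had 4 UMIs at 50 µM glutamine, 0 with DON and 0 in control. Jun in B lineage cells was lower with DON (13.2 CPM from 7 UMIs, against 28.6 CPM from 11 UMIs in control; log2 ratio -0.89), with overlapping intervals, and its log2 ratio was -0.39 with thinning.

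In B lineage cells 2 of 7 members were at least 1.5-fold higher at 50 µM glutamine, against 18.5% of 10103 genes, and 0 lower, against 14.5%. With DON 1 of 6 was higher and 1 of 6 lower, against 12.6% and 15.5% of 9898 genes. The median UMI count of B lineage cells was 1791 at 50 µM glutamine, 3753 with DON and 1954 in control. The 12 monocyte or macrophage markers summed to 999.6, 777 and 888 CPM in them, with 7, 6 and 8 of the 12 at 0, and their part in the result was not tested. Monocytes or macrophages are given by level only. Beside Fos, Egr1 there had 32.6 CPM at 50 µM glutamine, 29.6 CPM with DON and 7.28 CPM in control, from 12, 17 and 4 UMIs, and Ier3 had 19.0, 66.1 and 133 CPM, from 7, 38 and 73 UMIs. The Ier3 intervals of 7.64 to 39.2, 46.8 to 90.8 and 104 to 167 CPM were apart, in a gate whose markers differed as given above for Fos, and the part of those markers was not tested.

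Cell by cell, the members were detected sparsely. Each cell was thinned to 2000 UMIs, which left out at most 1 cDC2 and 4 pDC per library but 110, 38 and 60 B lineage cells. At least 1 member UMI was then present in 60.3% (53.7 to 66.7) of cDC1 at 50 µM glutamine, 56.1% (52.0 to 60.2) with DON and 68.6% (66.0 to 71.1) in control, and in 53.9%, 53.1% and 62.9% of cDC2. Unthinned shares were 97.8%, 98.5% and 98.5% of cDC1 and 91.6%, 92.8% and 94.8% of cDC2, where the depth of a cell weighs more. In mature dendritic cells the thinned shares were 81.6%, 77.8% and 80.7%, with overlapping intervals.

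Atf3 was found in 5.60% of thinned cDC1 cells at 50 µM glutamine, 1.03% with DON (6 of 581) and 4.55% in control (59 of 1297). In pDC, which had little Atf3 in any library, the shares were 0.0373%, 0 of 2375 (which allows up to 0.126% at this thinned depth) and 0.368%, at median depths of 6747, 6484 and 5378 UMIs before thinning. Unthinned, Atf3 was found in 12.9%, 5.68% and 15.8% of cDC1 and in 0.261%, 0.253% and 0.898% of pDC. Egr1 was found in 0.431%, 0.516% and 2.85% of thinned cDC1 cells, against 0 of 185, 0 of 185 and 0 of 409 mature dendritic cells, which allows up to 1.62%, 1.62% and 0.733% at this thinned depth. The Egr1 share of cDC1 at 50 µM glutamine rested on 1 thinned cell (0.0109% to 2.38%). Unthinned, Egr1 was found in 2.59%, 3.96% and 8.40% of cDC1 and in 0, 0 and 1 mature dendritic cells.

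**Figure D4:**
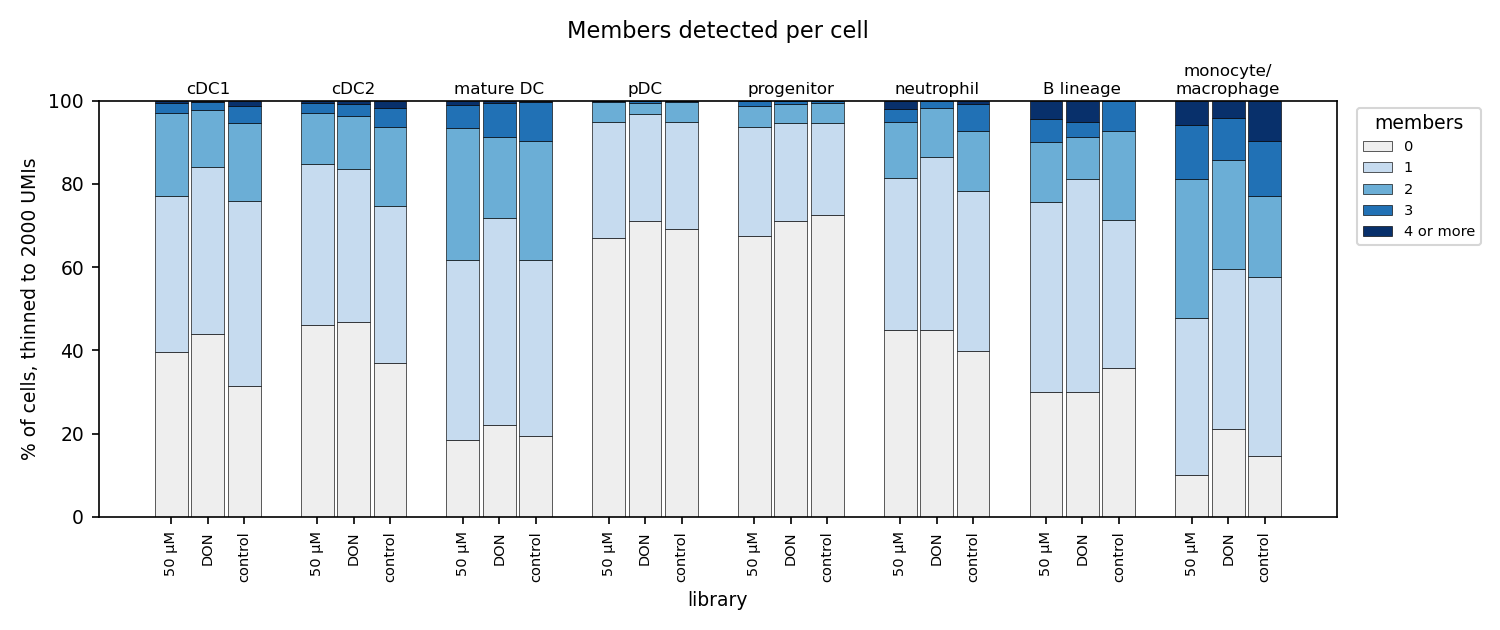
Share of cells, thinned to 2000 UMIs, with UMIs of 0, 1, 2, 3 or at least 4 members, for 8 gated classes in the 50 µM glutamine, DON and control libraries. Control cDC1 and cDC2 have the smallest white parts of their classes (31.4% and 37.1% with no member), and pDC and progenitors have at least 66.9% of cells with none.

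Joint detection of members in single cells was counted for each class. Of the pairs whose members were each found in at least 30 thinned cells of a class and library, 38 of 45 in cDC2, 19 of 28 in cDC1, 18 of 26 in pDC, 6 of 12 in mature dendritic cells, 2 of 3 in monocytes or macrophages and 0 of 2 in neutrophils, over the 3 libraries, were found together in more cells than the product of their shares gives. In cDC1 these were 1 of 1 at 50 µM glutamine, 2 of 6 with DON and 16 of 21 in control. Egr1 and Ier3 were together in 7 control cDC1 cells, 3.718 times the number given by the product, and Atf3 and Ier3 in 8, 2.665 times that number. In cDC2 Atf3 and Ier3 were together in 6 cells at 50 µM glutamine (3.99 given by the product), 7 with DON (3.86) and 16 in control (9.35). These are counts of a few cells in 1 library each and carry no test. No share was computed for pairs of other genes, so the counts do not show joint detection particular to the members. The same pair could be counted in each of the 3 libraries. Some pairs barely passed the product, such as Jund and Ier2 in cDC2 at 50 µM glutamine (20 cells, against 19.92).

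Over all cells of a library together, Junb had 76.6 CPM at 50 µM glutamine, 89.7 CPM with DON and 137 CPM in control, and Jund had 99.6, 125 and 174 CPM. Atf3 had 5.75, 7.52 and 14.9 CPM. Of 9 members, 3 were at least 1.5-fold lower at 50 µM glutamine, against 3.71% of 9613 genes, and 2 with DON, against 0.965% of 9329 genes. None of the 9 was higher, against 5.78% and 0.172%. Such totals include the cells that passed several gates, and they mix class sizes with levels within classes. In a further calculation each class kept its control level and took its share of UMIs in the treated library. Ungated cells and cells of several gates counted as classes there, although each can mix cell types. Those of several gates held 23897063 UMIs at 50 µM glutamine, 13916404 with DON and 8530773 in control. The calculation therefore does not separate cell mix from levels within these groups. The summed members would then have had 425 CPM at 50 µM glutamine and 447 CPM with DON. They had 318 and 331 CPM, and control had 471 CPM. For Atf3 this calculation gave 13.8 CPM at 50 µM glutamine and 14.6 CPM with DON.

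Of 35 further immediate early genes, 21 were measured in cDC1 and 21 in cDC2 with DON, and 0 passed 1.5-fold either way. That is near the share of all genes, of which 0.787% were higher and 1.08% lower in cDC1, and 0.321% and 0.554% in cDC2. With low glutamine 7 of 25 were at least 1.5-fold higher in cDC1 and 0 lower, against 4.42% and 1.18% of all genes. In cDC2 3 of 23 were higher and 0 lower, against 4.67% and 1.59%. Nfkbia, the inhibitor of NF-kB, had 110 CPM in cDC1 at 50 µM glutamine against 56.6 CPM in control, and 142 CPM in cDC2 against 88.6 CPM in control. Dusp6, the ERK phosphatase, had 55.3 CPM in cDC2 at 50 µM glutamine against 27.1 CPM in control, a log2 ratio of 0.91.

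The routes that lead to these promoters were counted against the same shares of all genes. Of 29 genes of the serum response and MAP kinase route, 27 were measured in cDC1, and 0 passed 1.5-fold with either treatment. In cDC2 2 of 26 were higher at 50 µM glutamine, Mapk14 (0.61) and Map2k7 (0.61), and 0 of 26 passed with DON. Of 19 AP-1 partners, 3 of 15 were higher in cDC2 at 50 µM glutamine, among them Mafg (0.65), and 0 of 15 with DON. Of 12 heat shock genes, 9 were measured in both classes and 0 passed with either treatment. With 0.321% to 4.67% of all genes passing, counts of 0 in lists of this size are near the background.

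In pDC at 50 µM glutamine 4 of 22 further immediate early genes were higher and 5 lower, against 10.3% and 4.79% of all genes. Myc had 21.7 CPM at 50 µM glutamine against 4.21 CPM in control (log2 ratio 1.54), and Dusp6 had 64.8 CPM against 22.8 CPM in control (1.33). Btg2, an antiproliferative gene, had 126 CPM at 50 µM glutamine and 203 CPM with DON, against 319 CPM in control, with log2 ratios of -1.31 and -0.64. Trib1, a pseudokinase, had 10.3 CPM at 50 µM glutamine and 16.7 CPM with DON, against 38.8 CPM in control. In progenitors at 50 µM glutamine Atf5 and Atf4, amino acid response factors, had 40.9 and 166 CPM, against 4.77 and 82.1 CPM in control.

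Junb lies across from Prdx2 on the opposite strand, Dusp1 from Ergic1, Jun from Junos and Jund from Gm11175, and how reads were assigned by strand is not given in the sources used here, so these 4 members carry that uncertainty. Junos had 111 UMIs and Gm11175 had 20 over all cells, against 5961 of Jun and 31030 of Jund. Prdx2 had 134 CPM in mature dendritic cells at 50 µM glutamine, 156 CPM with DON and 188 CPM in control, and 258, 288 and 270 CPM in progenitors, where Junb was low. Ergic1 was within 12.8 to 16.9 CPM in mature dendritic cells.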

How the data were processed

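The authors deposited UMI counts, not normalized, for genes and for barcodes that their pipeline had called as cells. Cell Ranger 3.1.0 and mm10 stand in the submitters' processing notes, but Cell Ranger 6.0.0 stands in the file headers, so the version is not settled, and the gene annotation is not given in the sources used here. Cells needed 1000 UMIs and 500 genes, and a mitochondrial share of 10% or less, and Scrublet (scanpy 1.11.5, expected rate 0.08) removed 4.97% of cells at 50 µM glutamine, 5.85% with DON and 8.62% in control. A cell was gated when markers of 1 list reached a minimum of 5 to 15 UMIs from at least 2 genes. The minimum was set from the distributions of marker UMIs, and cells passing several gates were left out of the classes but kept in the totals over all cells. Counts were summed per class and library and scaled to CPM, with exact Poisson intervals at 95%. Exact binomial (Clopper-Pearson) intervals were used for shares of cells and, conditional on the total count, for ratios of 2 sums without added CPM. UMIs of ambient RNA and remaining doublets are part of these sums.

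Ratios are log2 of treated over control with 5 CPM added, which understates the differences of low genes. Genes of at least 5 CPM in 1 of the 2 sums were counted at 1.5-fold, and list genes were named, up to 3 per direction, from 20 CPM. The 2 treatments share the control. With 1 library per group there is no test, and intervals cover counting error only, not cultures or mice. The calculation of ratios was tested on simulated counts. Genes like the members were ranked by Pearson correlation of log2(CPM + 5), without gate markers. RefSeq promoters (GRCm38.p6) were searched for motifs chosen with member promoters in view. The members, gene lists and tests were chosen with earlier results of these data known. The alternatives were 11 planned settings and 2 added after seeing the data (cells with no Mki67 or Top2a UMI, and cDC2 with a Cd209a or Clec4b1 UMI). Python 3.11.15, numpy 2.4.6 and scipy 1.17.1 were used.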

Additional observations from a re-analysis of the deposited data

Results flagged for a closer look

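Egr1 differed from control in opposite directions in different cell types. With DON its log2 ratio was -0.976 in cDC1 and 1.264 in B lineage cells. At 50 µM glutamine it was -0.7629 in cDC2, 1.525 in neutrophils and 2.7 in B lineage cells. The neutrophil value was 0.07 without the 1% of cells richest in members, and the cDC2 value missed 1.5-fold under 3 of 13 alternatives. As a mean over cells the B lineage values were 1.90 at 50 µM glutamine and 0.60 with DON. The differences between cell types were not tested, since each group had 1 library. The B lineage values rest on 86 UMIs at 50 µM glutamine, 27 with DON and 7 in control, and the neutrophil value on 17 UMIs at 50 µM glutamine and 3 in control.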

How the results depend on the processing

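No value that passed 1.5-fold changed sign: of 21 such member values in 7 classes, 21 kept their sign and 9 stayed past 1.5-fold under every alternative run. At 50 µM glutamine 6 of 50 measured values were higher and 4 lower. By class, 2.93% to 27.1% of all genes were higher there and 1.18% to 14.5% lower. With 10 CPM added the member counts were 3 and 2. The lower count was 7 with median-of-ratios scaling, doublets kept, a mean over cells or no Mki67 or Top2a UMI, and 8 with thinning. With DON 1 of 50 was higher and 10 lower. By class, 0.168% to 15.4% of all genes were higher with DON and 0.554% to 15.5% lower. The higher member count was 2 with 1 CPM added, with mitochondrial UMIs at most 5% or as a mean over cells. It was 3 with thinning or no Mki67 or Top2a UMI. In control the highest class was 5.47 times the lowest, and 6.65 times with median-of-ratios scaling, 4.91 with cells of several gates kept and 4.62 with no Mki67 or Top2a UMI. The summed members in cDC1 with DON had a log2 ratio of -0.49, and -0.59 with median-of-ratios scaling. In cDC2 at 50 µM glutamine the sum had -0.59, and -0.71 with median-of-ratios scaling, -0.65 with stricter gates, -0.54 as a mean over cells, -0.47 with thinning and -0.44 with no Mki67 or Top2a UMI. In cDC2 with DON it had -0.56, and -0.65 with median-of-ratios scaling, -0.45 with thinning, -0.42 with no Mki67 or Top2a UMI and -0.40 in cells with a Cd209a or Clec4b1 UMI. The share of control cells with a member UMI was 68.6% of cDC1 and 62.9% of cDC2, 47.0% and 43.9% when thinned to 1000 UMIs, and 98.5% and 94.8% without thinning. The cause was not tested beyond what each setting leaves out. Median-of-ratios scaling moved the median of all genes by 0.12 in cDC2, 0.10 in pDC and 0.18 in neutrophils at 50 µM glutamine. Low counts limit Fosb everywhere, Egr1 and Fos outside cDC, and Dusp1 outside mature dendritic cells. They limit Egr1 and Fos in cDC too, with 27 UMIs of Egr1 in 6 cells and 32 UMIs of Fos in cDC1 at 50 µM glutamine. No paired analysis was possible because each group had 1 library.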
